A study of Mus musculus with 16 samples.

Results

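The genes described here are the splicing factors of the SR and hnRNP families together with the cold-inducible RNA-binding proteins Cirbp and Rbm3. They were taken as every row of the liver and kidney expression tables whose symbol was Srsf followed by a number, began with Hnrnp, or was Cirbp or Rbm3. This matched 39 rows, and where a symbol was repeated the row with the highest mean was kept, which left 35 genes of the 32989 rows. Of these, 11 were SR genes, 22 carried an Hnrnp symbol and 2 were the cold-inducible genes. The Hnrnp group included Hnrnpa1l2 and Hnrnpa1l2-ps2, whose symbols name copies of Hnrnpa1.

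SR proteins carry a domain rich in arginine and serine, bind enhancers within exons and recruit the spliceosome, while hnRNPs coat nascent transcripts and often repress the use of nearby splice sites. Many genes of both families limit their own output through exons that send the transcript to nonsense-mediated decay. Cirbp and Rbm3 are induced by mild cooling, follow the daily rhythm of body temperature and bind the 3' ends of transcripts, where they affect the choice of polyadenylation site. The values used here count fragments over all exons of a gene, so they do not separate productive from decay-prone isoforms.

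RNA-seq was carried out on livers and kidneys of male C57BL/6J mice aged 97 weeks. The mice had been kept for 85 weeks either in the LD condition, a regular light-dark cycle, or in the ADV condition, in which the light schedule was advanced by 8 h once every 4 days. Each condition had 4 mice, and the liver and the kidney with the same mouse number came from the same animal, which gave 16 libraries in 4 groups. Mice are named here by condition and number: L63, L65, L86 and L104 in LD, and A75, A91, A94 and A115 in ADV. Tissues were taken in a window early in the dark phase, counted from the last light onset. Levels are given as FPKM, fragments scaled to exon length and to the library's total, and groups as mean ± SD over 4 mice.

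The libraries held about 22700000 to 26300000 fragments in the livers and 17100000 to 19700000 in the kidneys. Hepatocyte markers marked the livers and tubule markers the kidneys, with 5 of 6 tubule markers under 0.1 FPKM in every liver. The kidney of A115 stood apart. Its mean correlation with the other kidneys was 0.858, against 0.932 to 0.964 for the other 7 kidneys, and mitochondrial genes took 33.8% of its fragments, against 9.43 to 18.02% in the others. The liver of A94 had the lowest such correlation among livers, 0.941 against 0.977 to 0.982. The summed level of 10 leukocyte markers in that liver was 837 FPKM, against 112 to 216 FPKM in the other livers, and all 10 were highest there. For named genes whose value changed direction or moved by more than 1.5 times without 1 of these libraries, the value without it is given too in the comparisons of ADV with LD. The sequencing was done by 2 providers on different instruments, and the labels do not say which library went where. Whether provider followed condition or organ is not known, so its part in either comparison cannot be told apart.

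The members covered a wide range of levels per length. Hnrnpa2b1, which binds AU-rich and UAGG-type motifs, and Hnrnpk, which binds C-rich RNA, had the highest means in both organs, 103 and 62.3 FPKM in the liver and 129 and 116 FPKM in the kidney. Srsf5 was the most abundant SR gene, at 47.1 FPKM in the liver and 77.1 FPKM in the kidney. At the low end of the expressed members stood Hnrnpd, a regulator of AU-rich mRNA decay, at 3.61 and 7.15 FPKM, and Hnrnpr at 2.32 and 5.55 FPKM. Cirbp, with 6.19 FPKM in the liver and 9.29 FPKM in the kidney, ranked 29 and 30 among the 35 members, and Rbm3 ranked 18 and 21. A gene was tested where its mean exceeded 0.5 per 1000000 fragments, and 32 members did. Srsf12 and the Hnrnpa1 copies Hnrnpa1l2 and Hnrnpa1l2-ps2 stayed below this, with no value above 0.267 FPKM in any library. Among the 32 tested members the fewest fragments behind a value were 44.5, for Cirbp in the kidney of A115.

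**Figure D1:**
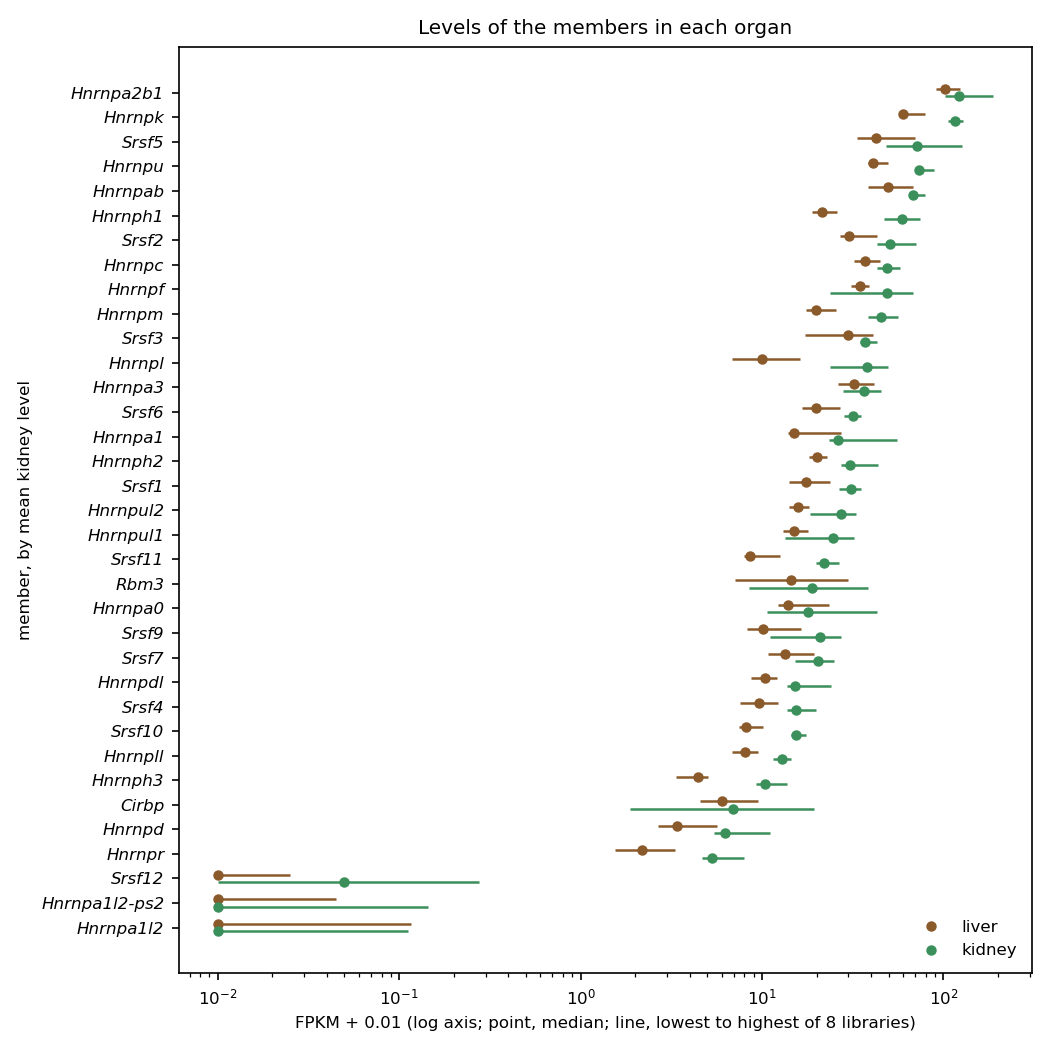
Level of each member in the 8 livers (brown) and 8 kidneys (green), as FPKM + 0.01 on a log axis, with points at the median and lines from the lowest to the highest library. Hnrnpa2b1 and Hnrnpk lead in both organs, Srsf12 and the 2 Hnrnpa1 copies stay near 0, and the ranges of neighbouring members mostly overlap.

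The first comparison asks whether 85 weeks of ADV exposure changed these genes, beginning with the cold-inducible genes in the kidney. Cirbp (uc007gce.1, chr10:80167841-80171653, mm10, plus strand) was at 7.88, 5.19, 5.50 and 5.98 FPKM in the LD kidneys L63, L65, L86 and L104. It was at 14.6, 14.0 and 19.3 FPKM in the ADV kidneys A75, A91 and A94, and at 1.86 FPKM in A115. Thus 3 ADV kidneys lay above every LD kidney and the fourth lay below every LD kidney, with means of 6.14 ± 1.21 and 12.4 ± 7.44 FPKM (SD, n = 4 each). The log2 fold change on log2(FPKM + 0.1) was 0.61 (SE 0.68), with an adjusted p of 0.9999 by limma with Benjamini-Hochberg adjustment over all 14452 kidney genes tested. An exact two-sided permutation test of the 4 against 4 mice gave p = 0.571, where the smallest p this design allows is 0.0286.

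Rbm3 (uc009snz.3, chrX:8138975-8145880, mm10, minus strand) had the same arrangement of mice. Its LD kidneys were at 16.6, 19.0, 17.7 and 18.8 FPKM, the ADV kidneys A75, A91 and A94 at 38.4, 22.1 and 34.4 FPKM, and A115 at 8.47 FPKM. The means were 18.02 ± 1.13 FPKM in LD and 25.9 ± 13.5 FPKM in ADV (SD, n = 4 each), with a log2 fold change of 0.31 (SE 0.44) and an exact permutation p of 0.571. In both genes the spread within the ADV group exceeded the difference between the groups.

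Without A115, Cirbp was 2.58-fold higher in ADV than in LD kidneys (log2 fold change 1.37, SE 0.17, limma adjusted p = 0.0107), and stood at place 46 of 14452 genes ordered by p. Rbm3 was 1.71-fold higher (log2 fold change 0.77, SE 0.18, limma adjusted p = 0.0238). A115 was the lowest kidney for both genes, and of the mice left out in turn only A115 gave called members. The exact permutation test of 3 against 4 mice gave 0.0571 for each gene, which is the smallest p it allows. The remaining ADV kidneys then differed from LD in many genes, since 16.2% of all genes tested were called higher, and over all genes the log2 fold changes had a median of 0.20. Setting libraries on their median gene ratio, an alternative scaling, brought that median to 0.015, and Cirbp stayed 2.27-fold higher (limma adjusted p = 0.0194) and Rbm3 higher by 0.58 on the log2 scale (limma adjusted p = 0.0371).

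Other features of these libraries are given beside the levels of Cirbp, Rbm3 and Hnrnpa0. Some were ordered like these genes among the mice and others were not, and their part was not tested. Mitochondrial genes took 10.7, 13.1 and 9.43% of the fragments in the kidneys of A75, A91 and A94, below the 15.7 to 18.02% of every LD kidney, and 33.8% in A115, so this share was ordered among the groups in the opposite way to these genes. The summed leukocyte markers were 529, 249, 1927 and 176 FPKM in the kidneys of A75, A91, A94 and A115, and 201 to 561 FPKM in the LD kidneys. A94 lay above that range, A75 and A91 inside it and A115 below it. In the kidney of A115, 4 of 6 tubule markers were the lowest of the 8 kidneys, although the sum of the 6, 47264 FPKM, was the highest. That sum was 20643, 31707 and 22922 FPKM in A75, A91 and A94, and 29181 to 41690 FPKM in the LD kidneys. The summed endothelial markers had the same arrangement as Cirbp and Rbm3, at 95.0, 72.4 and 93.1 FPKM in A75, A91 and A94, 64.3 to 72.0 FPKM in LD and 43.6 FPKM in A115, where 4 of 5 were the lowest. The summed fibroblast markers were 109, 45.1, 134 and 114 FPKM in A75, A91, A94 and A115 and 41.0 to 66.6 FPKM in LD. The summed proliferation markers were 16.2, 1.82, 14.9 and 28.9 FPKM in the same order and 2.04 to 5.48 FPKM in LD, with 5 of 6 highest in A115. In whole tissue, fewer cells of a type and less RNA per cell cannot be told apart. Clock genes also varied among the ADV mice. Arntl, the transcriptional activator of the clock, was at 4.61 and 6.35 FPKM in the kidneys of A75 and A115 and at 0.822 and 1.21 FPKM in A91 and A94, against 0.937 to 2.59 FPKM in LD. Whether Arntl and Cirbp were related was not tested.

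In the liver Cirbp was at 6.12, 6.17, 5.94 and 4.56 FPKM in L63, L65, L86 and L104, and at 6.43, 5.92, 9.49 and 4.88 FPKM in A75, A91, A94 and A115. Rbm3 was at 15.9, 14.8, 14.1 and 12.6 FPKM in the LD livers and at 12.1, 15.8, 29.8 and 7.06 FPKM in the ADV livers in the same order. A94 was the highest liver for both genes, A115 the lowest for Rbm3, and the groups overlapped. The log2 fold changes were 0.19 (SE 0.20) for Cirbp and -0.014 (SE 0.36) for Rbm3, with exact permutation p = 0.400 and p = 0.971. Without A94 they were 0.013 and -0.37.

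**Figure D2:**
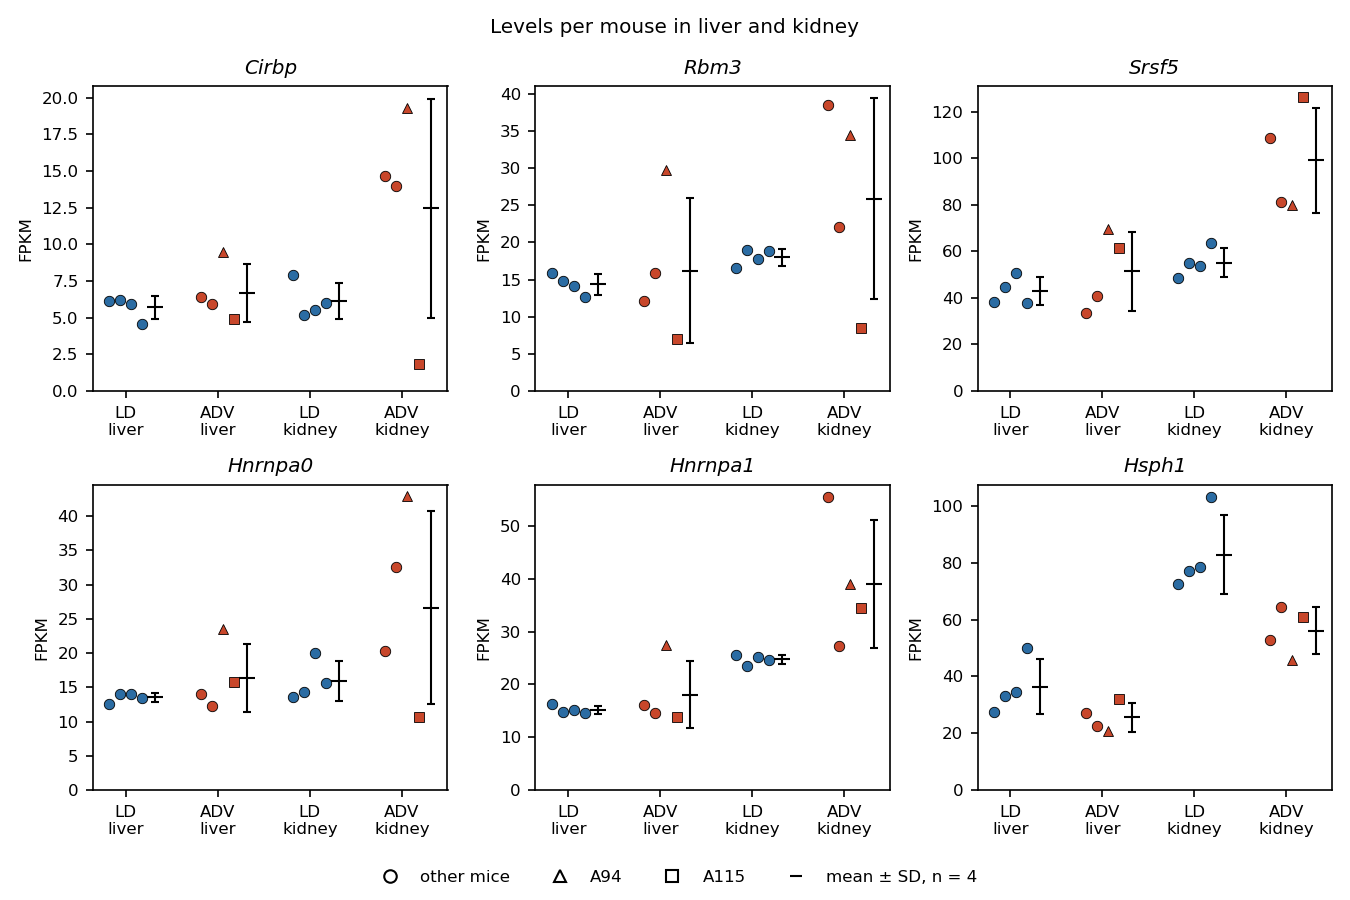
FPKM of Cirbp, Rbm3, Srsf5, Hnrnpa0, Hnrnpa1 and the heat shock gene Hsph1 in each mouse, by condition and organ, with triangles for A94, squares for A115, circles for the other mice and bars for mean ± SD (n = 4). Kidney Cirbp is 14.0 to 19.3 FPKM in 3 ADV mice and 1.86 FPKM in A115, whereas all 4 ADV kidneys lie above LD for Srsf5 and below LD for Hsph1.

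The promoters of Cirbp, Srsf5 and Hnrnpa0, called without A115, are shown because Cirbp has a sequence in its promoter described as a mild cold response element, TCCCCGCC. Each window holds the 250 bases before the transcription start in RefSeq (GRCm38.p6), 5' to 3' on the gene's strand. Capitals mark that element on either strand (TCCCCGCC or GGCGGGGA) and the GC box on either strand (GGGCGG or CCGCCC), and the pair overlap in Hnrnpa0. Cirbp is at chr10:80167589-80167838 on the plus strand, Srsf5 at chr12:80945249-80945498 on the plus strand and Hnrnpa0 at chr13:58128557-58128806 on the minus strand.
Cirbp: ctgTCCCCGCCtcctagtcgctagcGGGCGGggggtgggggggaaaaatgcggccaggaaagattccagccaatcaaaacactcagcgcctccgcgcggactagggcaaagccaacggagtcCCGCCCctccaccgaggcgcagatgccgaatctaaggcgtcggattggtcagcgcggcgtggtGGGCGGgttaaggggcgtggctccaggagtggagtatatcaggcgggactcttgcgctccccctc
Srsf5: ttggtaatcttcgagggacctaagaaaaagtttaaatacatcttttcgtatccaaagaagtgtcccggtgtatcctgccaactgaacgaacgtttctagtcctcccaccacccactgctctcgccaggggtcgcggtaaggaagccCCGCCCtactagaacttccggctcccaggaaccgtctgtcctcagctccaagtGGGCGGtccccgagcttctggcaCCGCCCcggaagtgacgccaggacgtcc
Hnrnpa0: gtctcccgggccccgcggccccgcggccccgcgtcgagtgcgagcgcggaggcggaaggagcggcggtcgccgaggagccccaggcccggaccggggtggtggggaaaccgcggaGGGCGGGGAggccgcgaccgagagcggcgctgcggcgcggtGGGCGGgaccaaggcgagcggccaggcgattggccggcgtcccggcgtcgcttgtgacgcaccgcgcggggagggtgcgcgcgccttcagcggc

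A RefSeq promoter entry was matched for 31 of the 35 members, in 44 windows, and Rbm3, Hnrnpll, Hnrnpul2 and Hnrnpa1l2 had none. In Cirbp the cold element began 247 bases before the start and in Hnrnpa0 it began 134 bases before it, and Hnrnpf and Srsf7 also held a match. These 4 windows were 9.09% of the members' windows, and 4.64% of all 32851 windows of that length held the element. The GC box occurred in 79.5% of the members' windows and in 32.7% of all windows. The heat shock element GAANNTTC was in 9.09% of the members' windows (6.69% of all), including Hnrnpa2b1 and Srsf9, and the E-box CACGTG in 6.82% (6.02% of all). A match is a description of these letters and not evidence of a bound site.

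Among the SR genes, Srsf5, which regulates exon inclusion, differed most in the kidney. Srsf5 (uc007obp.1, chr12:80945504-80950507, mm10, plus strand) was at 48.5, 54.8, 53.6 and 63.7 FPKM in the LD kidneys and at 109, 81.3, 79.8 and 126 FPKM in A75, A91, A94 and A115. All 4 ADV kidneys exceeded all 4 LD kidneys, including A115, which was the highest. The means were 55.1 ± 6.34 and 99.0 ± 22.5 FPKM (SD, n = 4 each), the log2 fold change was 0.82 (SE 0.19) and the unadjusted limma p was 0.00238. The limma adjusted p over all genes was 0.9999. Without A115 Srsf5 was 1.62-fold higher (limma adjusted p = 0.0167), and with median ratio scaling as well 1.42-fold higher (limma adjusted p = 0.0390). In the liver it was at 37.8 to 50.5 FPKM in LD and at 33.6, 40.7, 69.7 and 61.6 FPKM in the ADV mice in that order, so the groups overlapped.

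The other SR genes moved less in the kidney. Srsf7 was at 15.2 to 21.2 FPKM in LD and at 23.1, 24.9, 23.2 and 19.6 FPKM in ADV (log2 fold change 0.31, SE 0.15). Srsf2, the SR protein also known as SC35, was at 42.9 to 50.4 FPKM in LD and 51.3 to 70.2 FPKM in ADV, a log2 fold change of 0.28 (SE 0.15). Srsf3, the smallest of the SR proteins, was at 34.9 to 36.6 FPKM in LD and 37.7 to 43.0 FPKM in ADV, a log2 fold change of 0.15 (SE 0.11). The fibroblast and proliferation sums given above, higher than every LD kidney in A75, A94 and A115, stand beside the SR and Hnrnp genes that were higher in ADV, and their part was not tested. For Srsf2 and Srsf3 the groups did not overlap but their nearest mice were close, and none of these genes passed the test. With A115 left out and median ratio scaling, the log2 fold change of Srsf3 was -0.025, and those of Srsf2 and Srsf7 were 0.16 and 0.19.

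Of the Hnrnp genes, Hnrnpa1 (uc007xxr.2, chr15:103240397-103245966, mm10, plus strand), a splicing repressor that antagonises SR proteins, was at 25.5, 23.6, 25.2 and 24.7 FPKM in the LD kidneys. In A75, A91, A94 and A115 it was at 55.5, 27.2, 38.9 and 34.4 FPKM. The groups did not overlap, the log2 fold change was 0.61 (SE 0.21), and the limma adjusted p was 0.9999 and 0.0579 without A115. Hnrnpa1 has processed copies in the genome, and fragments shared with them would be split or dropped, so its level is uncertain. Hnrnpd was at 5.44 to 5.89 FPKM in LD and at 6.60, 7.11, 9.79 and 11.0 FPKM in ADV (log2 fold change 0.57, SE 0.20). Its relative Hnrnpdl was at 13.7 to 15.5 FPKM in LD and 14.8 to 24.0 FPKM in ADV (log2 fold change 0.38, SE 0.17). Without A115 and with median ratio scaling, the log2 fold changes of Hnrnpa1, Hnrnpd and Hnrnpdl were 0.46, 0.25 and 0.078. Hnrnpa3, Hnrnph1 and Hnrnpr, the last a partner of mRNA transport and splicing complexes, had log2 fold changes of 0.31, 0.31 and 0.33. That of Hnrnpr was 0.21 without A115, and with median ratio scaling as well the 3 were 0.16, 0.15 and 0.026. The limma adjusted p was 0.9999 for all 6.

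Hnrnpa0 (uc007qtf.2, chr13:58125879-58128556, mm10, minus strand), an AU-rich element binder, is named here after its values were seen. It was at 13.5, 14.3, 20.0 and 15.6 FPKM in LD kidneys and at 20.4, 32.5, 43.0 and 10.6 FPKM in A75, A91, A94 and A115. As with Cirbp, 3 ADV kidneys lay above LD and A115 below it. Without A115 it was 1.94-fold higher (log2 fold change 0.96, SE 0.24, limma adjusted p = 0.0317), and with median ratio scaling as well 1.70-fold higher (log2 fold change 0.77, SE 0.24, limma adjusted p = 0.0594).

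Counted over the whole set, no member passed the test in the kidney, where 0% of 14452 genes were called, with 448 genes at an unadjusted p under 0.05, 3 of them members. The groups of 4 did not overlap for 8 of 32 tested members, all higher in ADV: Srsf2, Srsf3, Srsf5, Hnrnpa1, Hnrnpa3, Hnrnpd, Hnrnph1 and Hnrnpr. Of all genes tested, 0.962% were higher and 1.83% lower without overlap. Under median ratio scaling 2 members were apart, Srsf5 and Hnrnpa1, against 1.22% of all genes higher and 1.35% lower. The median log2 fold change of the 32 members was 0.13, and -0.024 over all genes.

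Leaving out A115 raised these counts together with the background. Then 18 members were higher without overlap and none lower, against 24.8% and 8.06% of all genes, and with median ratio scaling 4 were higher (Cirbp, Rbm3, Srsf5 and Hnrnpa1) and 4 lower (Hnrnpab, Hnrnph2, Hnrnpu and Srsf10), against 16.5% and 15% of all genes. Called members numbered 4, namely Cirbp, Rbm3, Srsf5 and Hnrnpa0, where 16.2% of all genes were called higher. On that scaling 3 were called, all but Hnrnpa0, where 8.33% of all genes were called higher. As a share of 32 members, the 18 without overlap lay above the background, and the counts with scaling and the called counts lay near or below it. The members' median log2 fold change was 0.23 without A115 and 0.045 with scaling as well, beside 0.20 and 0.015 over all genes.

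The kidney of A115 split the members. It was the lowest of the 8 kidneys for 10 of 32 members (55.4% of all genes), namely Cirbp, Rbm3, Srsf9, Hnrnpa0, Hnrnpa2b1, Hnrnpf, Hnrnpl, Hnrnpm, Hnrnpul1 and Hnrnpul2. It was the highest for 9 members (19.1% of all genes), namely Srsf1, Srsf5, Srsf10, Srsf11, Hnrnpd, Hnrnpdl, Hnrnph2, Hnrnpr and Hnrnpu. Srsf9, for example, was at 11.1 FPKM in A115 and at 18.4 to 27.2 FPKM in the other kidneys, and Hnrnpf at 23.6 FPKM against 40.8 to 68.5 FPKM. In the opposite direction Hnrnpr was at 7.92 FPKM in A115 and at 4.64 to 5.95 FPKM elsewhere. The median exon length was 2385 bases in the first set and 3073 bases in the second.

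**Figure D3:**
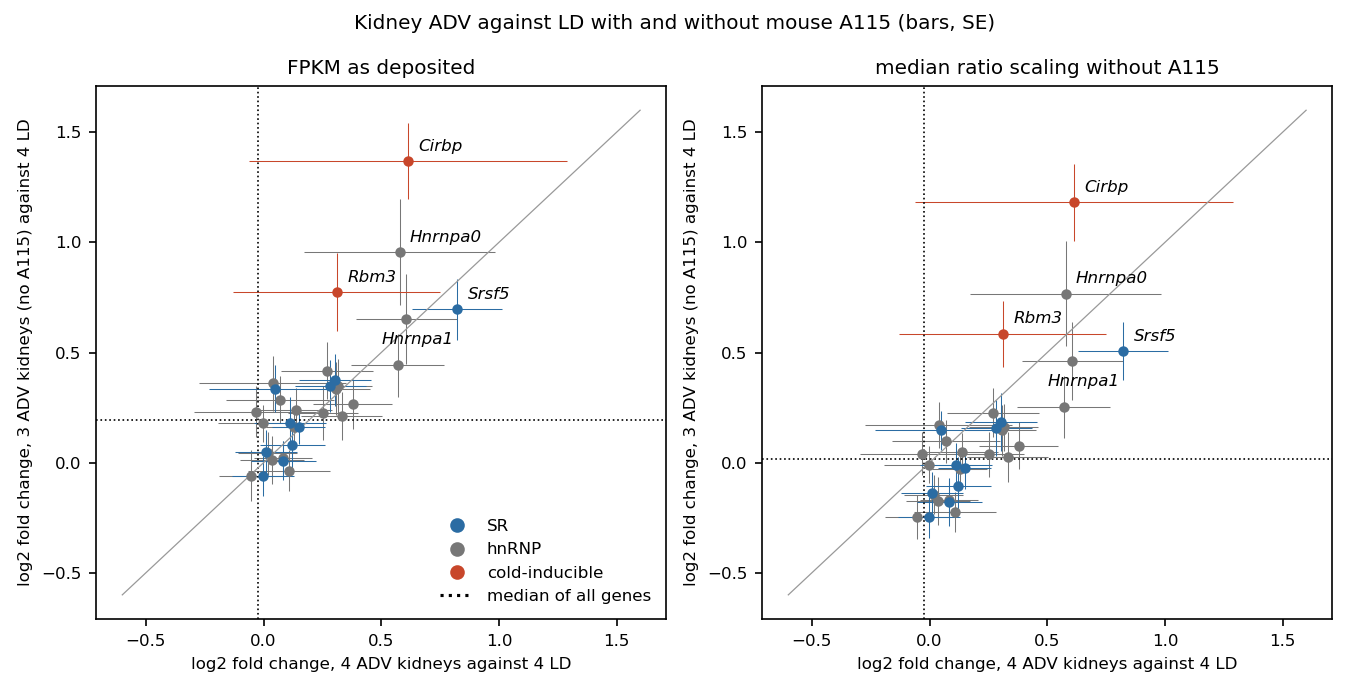
Log2 fold change of each tested member in the kidney, ADV against LD, with all 4 ADV mice (horizontal) and without A115 (vertical), as deposited at left and with median ratio scaling at right. Bars are SE and dotted lines the median of all genes. Cirbp moves from 0.61 to 1.37 and Rbm3 from 0.31 to 0.77 without A115, and Srsf5 from 0.82 to 0.70.

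In the liver no member passed the test, where 0.00779% of 12835 genes, 1 gene, were called and 1512 had an unadjusted p under 0.05, 3 of them members. The smallest p among the members belonged to Hnrnpr (uc008vhz.3, chr4:136310942-136345981, mm10, plus strand). It was at 2.05, 1.92, 1.55 and 1.87 FPKM in LD and at 2.54, 2.31, 3.32 and 3.01 FPKM in ADV, and the groups did not overlap. The log2 fold change was 0.56 (SE 0.16) and the limma adjusted p was 0.296. Hnrnpc, which binds U-rich tracts, was at 32.3 to 36.9 FPKM in LD and 37.2 to 44.8 FPKM in ADV (log2 fold change 0.21, SE 0.10). Hnrnpll, a regulator of splicing in lymphocytes whose row overlaps another row of the same symbol, was at 6.79 to 8.08 FPKM and 7.93 to 9.52 FPKM (log2 fold change 0.24, SE 0.10).

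The SR genes of the liver overlapped between the groups. Srsf1, the founding member of the family, was at 14.2 to 18.8 FPKM in LD and 15.7 to 23.7 FPKM in ADV (log2 fold change 0.34, SE 0.15, limma adjusted p = 0.419). Srsf3 differed by 0.38 (SE 0.21) on the log2 scale, Srsf5 by 0.21 (SE 0.22) and Srsf10 by 0.097 (SE 0.12), and without A94 Srsf5 and Srsf10 differed by 0.043 and 0.027. Hnrnpd and Hnrnpa3 differed by 0.36 and 0.22, and Hnrnph3 by -0.17, each with a limma adjusted p above that of Hnrnpc, 0.439. Without A94 the values of Hnrnpd and Hnrnpa3 were 0.19 and 0.13.

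Over the 32 members tested in the liver, 2 were higher without overlap, Hnrnpc and Hnrnpr, and 0 lower, against 6.94% and 1.89% of all genes. Under median ratio scaling 1 was higher, Hnrnpr, and 2 were lower, Hnrnph1 and Hnrnph3, against 4.75% and 4.29%. The liver of A94 was the highest of the 8 livers for 29 of 32 members, where it was the highest for 49.7% of all genes. All 10 leukocyte, all 6 proliferation and all 5 fibroblast markers were also highest in that liver. The summed fibroblast markers were higher in all 4 ADV livers, 156 to 325 FPKM, than in the LD livers, 113 to 129 FPKM, in the same direction as Hnrnpc and Hnrnpr, and all 5 had an unadjusted limma p under 0.05 with and without A94. The part of these markers in the members' levels was not tested. Without A94, 2 members were higher and 4 lower without overlap (Hnrnpab, Hnrnph1, Hnrnpl and Srsf9), against 8.4% and 5.1% of all genes. The members' median log2 fold change went from 0.079 to -0.026, and that of all genes from 0.096 to 0.027.

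**Figure D4:**
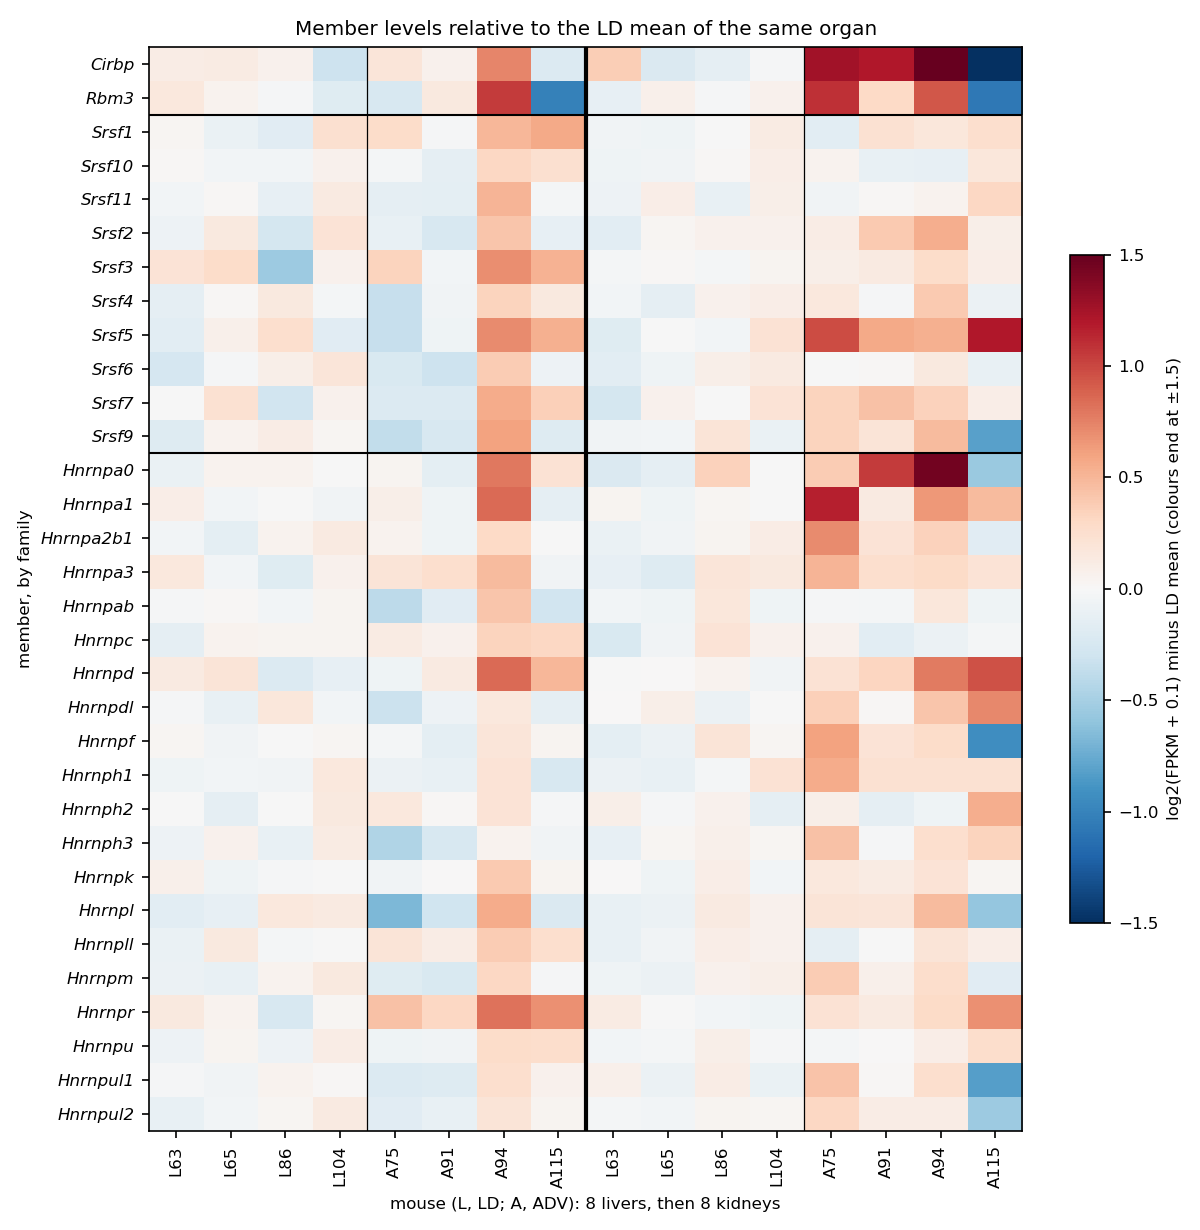
Each tested member in each library as log2(FPKM + 0.1) minus the mean of the LD mice of the same organ, with livers left of the thick line and kidneys right of it. The liver of A94 is red for nearly all members, and the kidney of A115 is blue for Cirbp, Rbm3, Srsf9 and Hnrnpf and red for Srsf5, Hnrnpd and Hnrnpr.

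The next comparison set the kidney against the liver within each condition. In LD, 25 of 32 members were higher in the kidney and none lower, 9 of 10 SR genes and 16 of 20 Hnrnp genes, where 55.5% of 14968 genes tested were called higher. In ADV the counts were also 25 and 0, where 51.7% of all genes were called higher. The members' median log2 fold change, 0.65 in LD and 0.74 in ADV, stood beside 0.80 and 0.69 for all genes. In the liver the 6 hepatocyte markers alone summed to 57317 to 70907 FPKM, and with median ratio scaling the median of all genes fell to 0.054 in LD and 0.0051 in ADV. With that scaling 2 members were higher and 4 lower in LD (30.2% and 24.7% of all genes) and 5 higher and 4 lower in ADV (27.5% and 24.3%). The direction thus turned with the scaling for many members.

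Hnrnpl (uc009fzz.2, chr7:28810890-28822266, mm10, plus strand), which binds CA repeats, differed most, and in LD it is named after its values were seen. It was at 9.79, 10.1, 12.2 and 12.0 FPKM in the LD livers and at 32.9, 33.5, 39.0 and 37.2 FPKM in the LD kidneys of the same mice. In ADV the livers were at 6.86, 8.93, 16.2 and 9.41 FPKM and the kidneys at 40.7, 40.4, 49.6 and 23.8 FPKM. The kidney exceeded the liver in all 8 mice, by 3.22-fold in LD (log2 fold change 1.69, SE 0.24, limma adjusted p = 2.01e-05) and 3.77-fold in ADV (limma adjusted p = 6.36e-06). Under median ratio scaling it was 1.84-fold and 2.27-fold higher (limma adjusted p = 0.000189 and 9.94e-06).

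Among the SR genes Srsf11 had the largest organ difference. It was at 8.10 to 9.69 FPKM in LD livers and 19.9 to 23.0 FPKM in LD kidneys, 2.43-fold higher (log2 fold change 1.28, SE 0.15, limma adjusted p = 1.93e-06). With median ratio scaling the log2 fold change was 0.47 in LD (limma adjusted p = 0.0502) and 0.59 in ADV (limma adjusted p = 0.0182). Srsf10, a repressor when dephosphorylated, Srsf1, Srsf2 and Srsf4 were called higher in the kidney in both conditions, and with that scaling none of these 4 passed in either (log2 fold changes of 0.12, 0.089, -0.24 and -0.17 in LD and 0.098, -0.044, 0.14 and 0.0012 in ADV).

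Hnrnph1 and Hnrnph3, relatives that bind G-rich runs, and Hnrnpm, Hnrnpk and Hnrnpu were called higher in the kidney in both conditions as deposited. Hnrnpk and Hnrnpu lost that call with median ratio scaling, at 0.077 and 0.034 in LD and 0.19 and 0.092 in ADV on the log2 scale. Hnrnph1 was at 21.4 to 25.1 FPKM in LD livers and 46.8 to 59.1 FPKM in LD kidneys, 2.25-fold higher (limma adjusted p = 1.14e-06), and 2.90-fold higher in ADV (limma adjusted p = 6.10e-08). Once scaled by median ratio, Hnrnph1, Hnrnph3 and Hnrnpm were called in ADV, with log2 fold changes of 0.81, 0.81 and 0.50, and in LD none of the 3 passed. Hnrnpr was 2.56-fold higher in LD (limma adjusted p = 2.41e-06) and 1.49-fold with that scaling (limma adjusted p = 0.0406), and in ADV 2.18-fold and, with that scaling, 1.33-fold (limma adjusted p = 1.99e-05 and 0.139).

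At the other end, and with the Hnrnp genes named after their values were seen, Hnrnpa2b1, Hnrnpa3, Hnrnpa0, Rbm3 and Cirbp had the 5 smallest log2 fold changes in LD, between 0.10 and 0.33. Hnrnpa3 was at 26.2 to 33.3 FPKM in LD livers and 27.9 to 36.2 FPKM in LD kidneys, and Hnrnpa2b1 at 90.6 to 111 FPKM and 107 to 124 FPKM. With median ratio scaling Hnrnpa2b1 and Hnrnpa3 were lower in the kidney in both conditions, 1.53-fold and 1.64-fold in LD (limma adjusted p = 0.000370 and 0.00106). As deposited, Hnrnpa2b1 was instead called higher in the kidney in ADV (log2 fold change 0.40, limma adjusted p = 0.0429), so its call turned with the scaling. Hnrnpf and Hnrnpa0 were lower with that scaling in LD, and Hnrnpc and Srsf3 in ADV. Cirbp and Rbm3 did not pass between the organs in either condition. Their log2 fold changes in ADV were 0.52 and 0.65, and -0.21 and -0.08 with median ratio scaling. With the mouse as a block, which uses the pairing of the 2 organs of each animal, Rbm3 passed in ADV (log2 fold change 0.65, limma adjusted p = 0.0357) and Cirbp did not (limma adjusted p = 0.276). In the fit without the block and without A115 both passed there, with 1.14 for Cirbp and 0.78 for Rbm3 (limma adjusted p = 0.000182 and 0.0156).

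**Figure D5:**
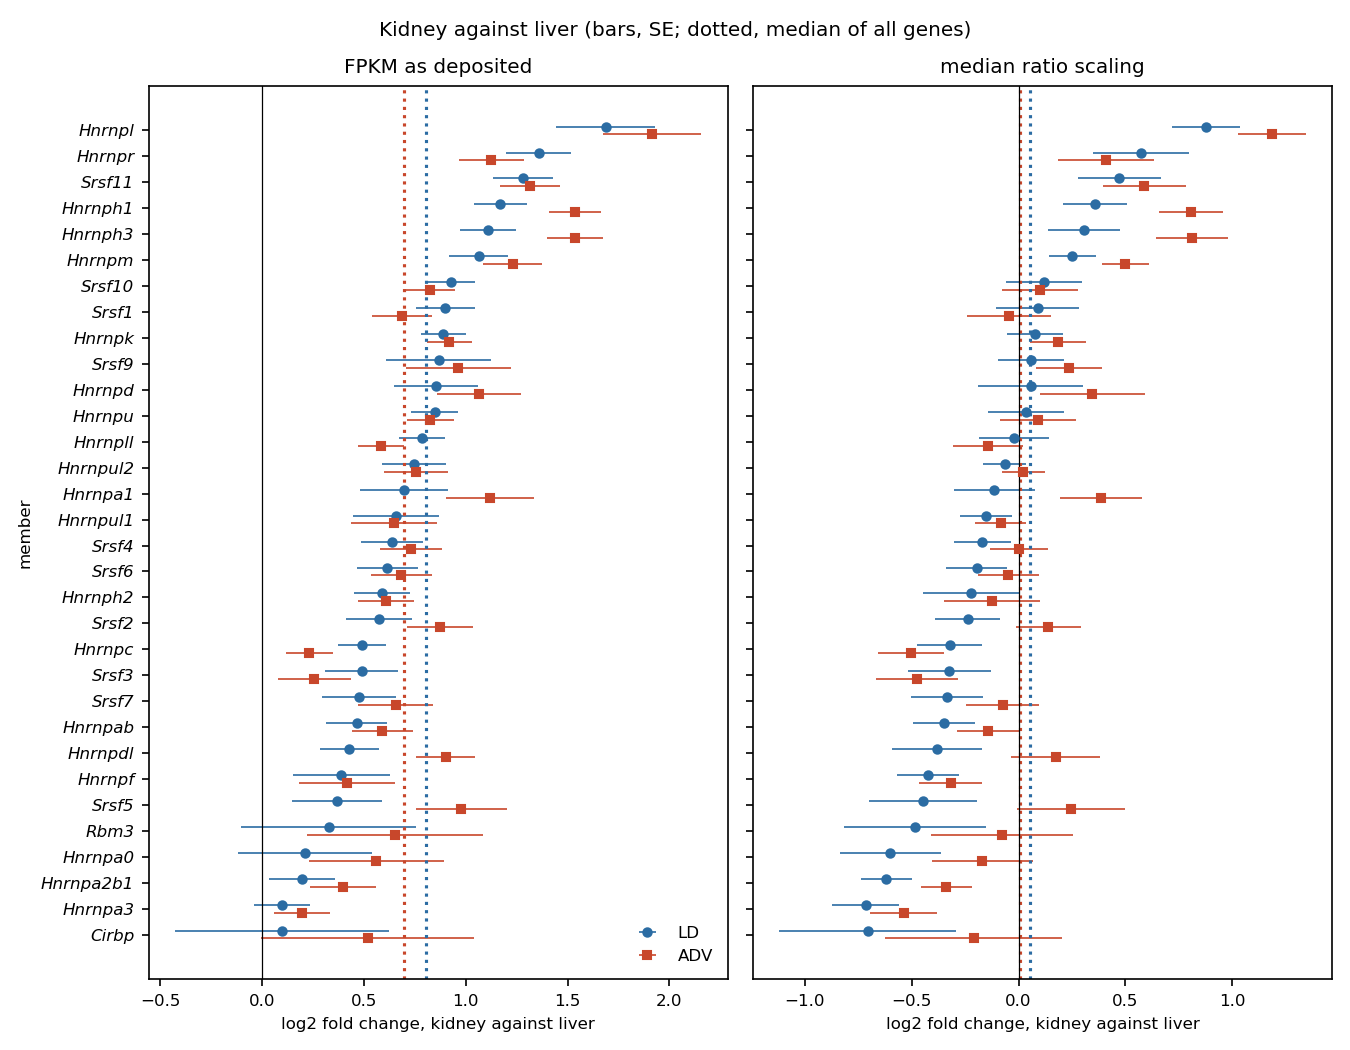
Log2 fold change of kidney against liver for each tested member in LD (blue circles) and ADV (red squares), with SE bars, as deposited at left and with median ratio scaling at right, and the median of all genes as dotted lines. Hnrnpl lies to the right of the dotted lines in both panels, and Hnrnpa2b1 and Hnrnpa3 to the left.

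Whether the ADV effect differed between the organs was tested as an interaction over all 16 libraries. No member passed, and 0% of 14968 genes did, with 556 at an unadjusted p under 0.05, 2 of them members. Those were Hnrnpdl, whose kidney effect exceeded its liver effect by 0.47 (SE 0.21) on the log2 scale, and Hnrnph3, by 0.43 (SE 0.19). For Srsf5 the difference was 0.61 (SE 0.31), for Hnrnpa1 0.42, for Hnrnph1 0.37 and for Srsf2 0.30, while Hnrnpc, Srsf3, Srsf1 and Hnrnpll had differences of -0.26, -0.23, -0.21 and -0.20. The differences for Cirbp and Rbm3 were 0.42 and 0.32, with a limma adjusted p of 0.99996 for each of these genes. Without A115 the differences for Cirbp and Rbm3 were 1.04 and 0.46 (limma adjusted p = 0.0589 and 0.504), and without A94 that for Cirbp was 0.25.

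Other genes of the pathway were read from lists of their own. In ADV against LD, none of the kinases and the importin that act on SR proteins passed in either organ (8 of 10 tested, median log2 fold change -0.019 in the liver and 0.038 in the kidney). Srpk2 was nearest in both, at 0.26 in the liver and -0.15 in the kidney, followed by Tnpo3 at -0.16 in the liver and Clk1 at 0.21 in the kidney, which turned to -0.11 without A115. Clk1, a kinase whose own intron retention responds to temperature and stress, was at 102 FPKM in the kidney of A115 and at 38.3 to 52.4 FPKM in the other kidneys.

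None of the 16 SR-related splicing proteins, 23 tested hnRNP-related proteins, 27 core spliceosome genes and 15 genes of nonsense-mediated decay passed either. Their median log2 fold changes were 0.014, 0.031, 0.099 and -0.060 in the liver and 0.045, 0.079, 0.026 and -0.11 in the kidney, beside 0.096 and -0.024 for all genes. Tardbp, an hnRNP-like protein that represses cryptic exons, had the smallest p of these lists in the liver, at 6.29 to 8.42 FPKM in LD and 8.59 to 12.7 FPKM in ADV without overlap (log2 fold change 0.64, SE 0.15, limma adjusted p = 0.296). Khsrp differed there by -0.34. Tra2a and Tra2b, activators related to SR proteins, differed in the liver by 0.51 and 0.35, Snrpd1 and Snrpb2 of the core by 0.44 and 0.34, and Magoh and Smg5 of the decay pathway by 0.25 and -0.17. In the kidney, genes near the top of these lists were Taf15 at 0.47, U2af1 at 0.23 and Tra2a at -0.21, Sf3a3 at 0.19 and Prpf8 at -0.31, and Rbm8a at 0.18 and Smg1 at -0.14. Leaving out A94 moved Snrpd1 to 0.29, and leaving out A115 moved Prpf8 to -0.051. With A115 left out and median ratio scaling, Taf15 was at 0.29, U2af1 at -0.012, Sf3a3 at 0.0085 and Rbm8a at 0.062. Tra2a, Prpf8 and Smg1 were then at -0.39, -0.24 and -0.36.

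The heat shock genes answer warming where Cirbp and Rbm3 answer cooling, and are given beside them. None of the 20 passed in either organ, 18 of 20 had a log2 fold change at or below 0 in the liver and 17 of 20 in the kidney, with medians of -0.26 and -0.31. Of all genes, 34.3% in the liver and 53.6% in the kidney were at or below 0. Without A115 this held for 11 of 20 in the kidney, with a median of -0.15, and for 32.3% of all genes, and with median ratio scaling as well for 15 of 20, with a median of -0.34, and for 48.6% of all genes. Hsph1, a co-chaperone of the HSP70 system, was at 72.5, 77.0, 78.6 and 103 FPKM in the LD kidneys and at 52.9, 64.4, 45.9 and 61.0 FPKM in A75, A91, A94 and A115. All 4 ADV kidneys were below all 4 LD kidneys (log2 fold change -0.56, SE 0.17, limma adjusted p = 0.9999), and without A115 the fold change passed (-0.61, limma adjusted p = 0.0320). Dnaja1 differed by -0.48 in the kidney, and Dnajb1 and Hspd1 by -0.55 and -0.39 in the liver. Of the clock genes none of 11 in the liver and none of 12 in the kidney passed. Per2 differed by -0.56 and -0.76, Cry2 by -0.37 in the liver and Cry1 by -0.64 in the kidney, with list medians of -0.43 and -0.27. Without A115 the kidney median was 0.15 (7 of 12 above 0), beside 0.20 for all genes, and with median ratio scaling as well -0.037 (6 of 12), beside 0.015. Per2 was then at -0.48 and -0.66.

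Without A115 the lists had calls in the kidney, where 16.2% of all genes were called higher and 2.68% lower, and with median ratio scaling 8.33% and 7.67%. Called higher and lower were 0 and 0 of 8 kinases and importin, 2 and 0 of 16 SR-related genes, 3 and 1 of 23 hnRNP-related genes, 6 and 0 of 27 core spliceosome genes and 1 and 0 of 15 decay genes, and with scaling 0 and 2, 1 and 3, 1 and 3, 3 and 1, and 0 and 1. Heat shock genes had 1 higher and 2 lower, then 0 and 7, and clock genes 1 and 3, then 0 and 3. Between the organs in LD the lists are set beside the background of 55.5%, with 7 of 8, 11 of 16, 17 of 23, 20 of 27 and 10 of 15 genes higher in the kidney in the same order, 10 of 20 heat shock genes and 1 of 12 clock genes. Under median ratio scaling, with 30.2% of all genes higher and 24.7% lower, the first 5 lists had 2, 2, 4, 4 and 1 genes higher and 1, 2, 3, 3 and 2 lower, heat shock genes 3 and 6, and clock genes 1 and 3.

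Across the 8 mice, 9 relations between Cirbp, Rbm3 and Hsph1 were computed on log2(FPKM + 0.1), with p-values adjusted over the 9. Kidney Cirbp fell into separate clusters (A115, the LD mice, and ADV mice above them) with fewer than 6 mice each. Kidney Rbm3 was also set apart in A115, A75 and A94, but A91 lay nearer the LD mice. No coefficient is given for relations that use either gene in the kidney. In the liver, Cirbp and Rbm3 had r = 0.84 (exact permutation p = 0.0352, adjusted 0.0792) and rho = 0.48 (exact permutation p = 0.243, adjusted 0.301), and r was 0.82 without L104 and A94. Cirbp and Hsph1 in the liver had r = -0.78 (exact permutation p = 0.0309, adjusted 0.0792) and rho = -0.60 (exact permutation p = 0.132, adjusted 0.301), and r was -0.27 without L104 and A94, so the relation rested on those mice. Under median ratio scaling that r was -0.78, and -0.81 without L104 and A115, the 2 mice then farthest from the median. Rbm3 and Hsph1 in the liver had r = -0.52 (exact permutation p = 0.160, adjusted 0.206) and rho = -0.50 (exact permutation p = 0.216, adjusted 0.301), and r was -0.50 without A94 and A115. Liver and kidney Hsph1 had r = 0.87 (exact permutation p = 0.00764, adjusted 0.0344) and rho = 0.88 (exact permutation p = 0.00724, adjusted 0.0652), and r fell to 0.49 without L104 and A94. These pool both conditions, each of which holds too few mice for a coefficient of its own.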

How the data were processed

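Poly(A)-enriched stranded RNA was sequenced as paired-end reads by 2 providers. Per the study's methods the authors trimmed reads, mapped them to mm10 with STAR (2.5.4b in the submitters' processing notes), removed low mapping qualities and quantified the exons of the canonical UCSC gene set with HOMER. They deposited FPKM values, 1 table per organ. The exon length was also deposited. Whether counting used strand is not given in the sources used here, so antisense overlap cannot be told apart. Removing low mapping qualities can lower genes with near-identical copies. Given length and the library total in the file headers, all values were whole multiples of 0.5 fragment (tolerance 0.01 fragment).

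No count model was the main test, since the files hold FPKM. limma 3.58.1 (R 4.3.3, trend) was fitted to log2(FPKM + 0.1), which understates changes of low genes, over genes with a mean above 0.5 per 1000000 fragments, and p-values were adjusted by Benjamini-Hochberg over all genes tested, with calls at an adjusted p under 0.05. The 2 organs were tested apart for ADV against LD. Organ differences and the interaction used all 16 libraries. The limma fits were tested on simulated data. Exact permutation tests used scipy 1.17.1. Same-numbered samples are the 2 organs of 1 mouse, and the correlation of their deviations from group means over 12319 genes was -0.024 to 0.55. Replicates are separate mice.

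Members named per comparison are Cirbp, Rbm3, and the 4 SR and 6 Hnrnp genes with the smallest unadjusted p, and of other lists the 2 genes with the smallest p. Any other member is named after its values were seen. A gene that this rule names in the other lists is not reported here. The members and lists were chosen with earlier results of these data known. Alternatives were a pseudocount of 1, no filter, a mean FPKM above 1, median ratio scaling, removal of mitochondrial genes, limma-voom on recovered fragments, 1 fit over both organs, the mouse as a block, and each mouse left out. The number of fragments limits precision through counting error only.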

Additional observations from a re-analysis of the deposited data

Results flagged for a closer look

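In groups of 4, a value was marked where its gap to the nearest mouse, as a share of the group's range, passed the critical value of Dixon's test, which chance gives in about 1 of 20 groups. Of 128 groups of member values 9 were marked, where 6.4 would be 5%. In the LD livers these were Cirbp in L104 (4.56 FPKM, lowest), Hnrnph1 in L104 (25.1 FPKM, highest) and Hnrnpc in L63 (32.3 FPKM, lowest). In the ADV livers A94 was the highest for Hnrnpa1 (27.4 FPKM), Srsf11 (12.5 FPKM), Srsf2 (43.1 FPKM) and Srsf9 (16.4 FPKM). In the kidneys these were Hnrnpab in L86 (78.8 FPKM, highest in LD) and Hnrnph1 in A75 (74.4 FPKM, highest in ADV). The low Cirbp and Rbm3 of the A115 kidney (1.86 and 8.47 FPKM) were not marked.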

How the results depend on the processing

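In the liver no member was called under any alternative run, and the genes called went from 1 to 6 without the filter and 0 to 9 with 1 mouse left out. In the kidney 0 members and 0 genes were called except without A115 (4 members, 2726 genes), without A115 and with median ratio scaling (3 members, 2312 genes) and with both organs in 1 fit (1 gene). Left-out mice gave 0 to 4 members and 0 to 2726 genes there. Members with groups apart in the kidney went from 8 to 2 with median ratio scaling and 18 without A115, and in the liver from 2 to 6 without A94, alternatives chosen after seeing the data. Between organs, 25 members were called in LD and 6 with median ratio scaling, and 25 in ADV and 9 with that scaling. With 1 mouse left out these were 20 to 23 and 22 to 29, and genes called 8781 to 8942 and 8182 to 11692. The mouse as a replicate block gave 24 and 26 members, and changed no other call of a named member than Rbm3 in ADV (0.65). For the interaction 0 members were called, and 3 genes without the filter, 1 with median ratio scaling and 0 to 411 with 1 mouse left out, 411 being without A115.

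Directions turned for Rbm3 in the liver, from -0.014 to 0.037, 0.0029, 0.063 and 0.32 without L63, L65, A75 and A115 (-0.37 to 0.32 over all mice left out), and for its interaction to -0.012 without A75 (-0.012 to 0.47). With median ratio scaling the organ difference of Cirbp went to -0.70 in LD and -0.21 in ADV, of Rbm3 to -0.48 and -0.078, and of Srsf4 to -0.17 in LD, and Srsf3 in the kidney went to -0.025 without A115 as well. These are the turns of members named by the rule. Over all 32 members, 12 organ differences in LD and 17 in ADV were above 0 with median ratio scaling, against 32 in each as deposited. In the liver the relations of Cirbp with Rbm3 and with Hsph1 had adjusted p = 0.0342 for r with that scaling, and 0.194 and 0.0827 for rho (exact permutation). The cause was not tested.

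With 4 mice a group, 1 of them set apart in each organ, differences within the ADV spread were not detectable. Exon-level FPKM does not show isoforms.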
